A study of Mus musculus with 14 samples.

Results

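The genes described here are the liver-made coagulation factors and the early components of complement, 31 genes in all, followed in the livers of mice on different diets. They were chosen by name: a gene entered through a non-control probe that carries its gene name or current symbol, and the brightest probe stood for the gene. Serpins and the terminal complement components were left out. In this way 29 of the 31 genes were found, and all 29 were well above background on all 14 arrays, so none was lost to the filter that left 32673 of 36093 genes for testing. For the other 2, Masp2 and C4bp, only the probe description gives the gene, so they fall outside the naming rule and their values are given separately.

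Agilent whole-genome arrays measured liver RNA of male C57BL/6 mice of 1 year. The resveratrol group (n = 4) received the same fat-rich diet as the next group with resveratrol, a polyphenol from plants, added at 0.04%. The high-calorie group (n = 5) ate the purified AIN-93G diet changed so that fat gives 60% of calories. The standard diet group (n = 5) ate AIN-93G. Each array carried the RNA of 1 animal in Cy3, and Cy5 always held the same pool made from 5 livers of mice on the standard diet. Values are log2 ratios of animal to pool after loess normalisation within each array. A probe's dye effect is part of that ratio on every array, so only differences between groups are read, never the ratio of one gene against that of another. These are bulk livers, in which fewer cells of a type and less RNA per cell cannot be told apart.

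Clotting runs through a cascade of serine proteases and their cofactors that ends with thrombin cutting fibrinogen to fibrin. Plasmin dissolves the clot, and protein C with protein S brakes the cascade. The early complement components are organised the same way, as proteases that activate each other in the classical and lectin pathways and meet at C3. Hepatocytes secrete nearly all of these proteins into plasma, with factor VIII from sinusoidal endothelium as an exception, and several of them are acute phase proteins whose synthesis changes in inflammation.

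The arrays overlapped in quality between groups, but the standard-diet range lay lowest at both ends. The median net Cy3 signal ran between 65.9 and 100 in resveratrol, between 57.7 and 114 in high-calorie and between 48.6 and 85.6 in standard-diet arrays. The share of probes well above background was 82.0% to 92.4%, 83.6% to 91.8% and 77.9% to 88.3% in the same order. Of 10 hepatocyte markers, 8 were among the genes tested, including Alb, Ttr and Apoa1. Resveratrol replicate 3 stood apart. The mean log2 ratio of 21 acute phase genes was 1.66 on that array and -1.47, -1.62 and -0.62 on the other resveratrol arrays, against -1.44 to -1.24 in high-calorie and -1.59 to -1.40 in standard-diet arrays. The mean of 3 neutrophil markers was 0.70 on the same array, against -0.93 to -0.50 on all the others. Each result below is therefore also given without it where that changes a call. The labels do not say that the animals were independent in housing or handling, so p-values measure the spread between these animals.

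The first comparison asks what the high-calorie diet did to the clotting and complement genes. With loess scaling 7 of 29 genes were lower in high-calorie than in standard-diet livers and none was higher, at an adjusted p under 0.05 in limma over all genes. The 7 are the proteases F10, F11 and F12, the kininogen Kng1, protein C (Proc), fetuin-A (Ahsg) and the complement protease C1ra, with falls between 1.18-fold and 1.61-fold for the 6 genes without saturated spots, that is all but Ahsg. Over all genes tested 9.44% passed in either direction, 4.07% as lower and 5.37% as higher. The median difference of the 29 genes was -0.23 on the log2 scale with loess, but 0.04 when each array was only median-centred, against -0.0021 over all genes with loess. At an unadjusted p under 0.05, 13 genes were lower and 1, Mbl2, was higher, where 27.6% of all genes passed in either direction. High-calorie and standard-diet values did not overlap in 9 of the 29 genes, against 10.3% of all genes. Fgb, C2 and C3 were among the 9 without passing the test.

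**Figure D1:**
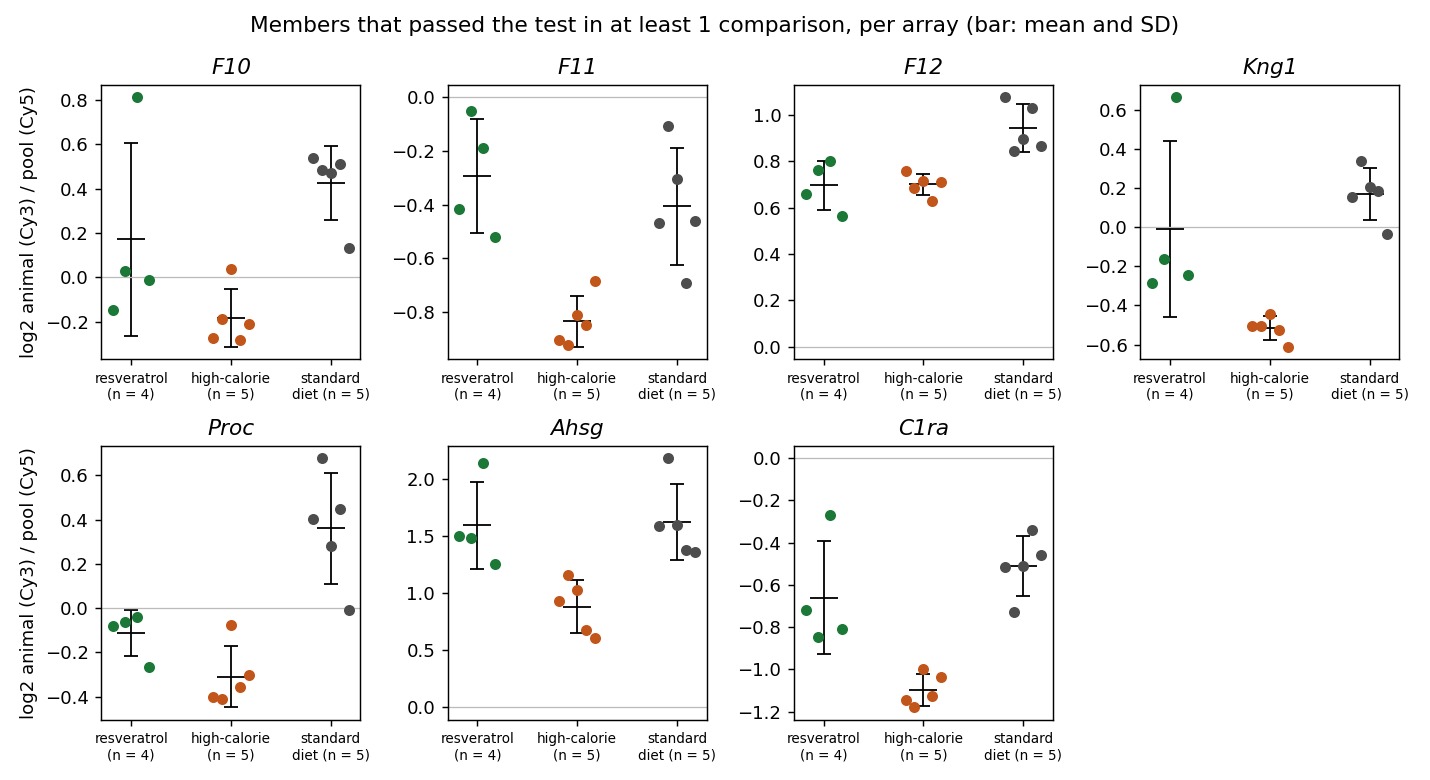
Log2 ratio of animal to pool (y axis, loess scaling) on each array for the 7 genes that passed the test in at least 1 comparison, by group from left to right, with bars for the mean and SD. High-calorie points lie below all standard-diet points for F10, F12, Kng1, Proc, Ahsg and C1ra, and 10.3% of all genes had no overlap between these groups. The Ahsg ratios come from saturated spots, and the difference of F12 turns to 0.10 with median centring.

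Promoter windows from RefSeq (GRCm38.p6) are shown for F10, F11, F12, Ahsg and C1ra, because these genes fell together with loess scaling. Of the other genes that fell, Kng1 had no window and Proc is not shown. Each line gives the 250 bases before the annotated start, written from far to near, and capitals mark a match to one of the searched motifs.
F10 (chr8:13037058-13037307, plus strand): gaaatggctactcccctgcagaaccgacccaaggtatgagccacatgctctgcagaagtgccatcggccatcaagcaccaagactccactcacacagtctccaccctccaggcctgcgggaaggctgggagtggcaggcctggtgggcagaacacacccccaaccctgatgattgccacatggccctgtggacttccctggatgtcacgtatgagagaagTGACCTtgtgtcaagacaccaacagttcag
F11 (chr8:45262032-45262281, minus strand): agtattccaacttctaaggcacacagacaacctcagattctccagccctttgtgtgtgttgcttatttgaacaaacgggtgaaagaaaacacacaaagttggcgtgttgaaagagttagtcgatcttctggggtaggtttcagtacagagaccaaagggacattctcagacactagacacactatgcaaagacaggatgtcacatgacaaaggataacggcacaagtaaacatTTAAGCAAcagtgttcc
F12 (chr13:55426805-55427054, minus strand): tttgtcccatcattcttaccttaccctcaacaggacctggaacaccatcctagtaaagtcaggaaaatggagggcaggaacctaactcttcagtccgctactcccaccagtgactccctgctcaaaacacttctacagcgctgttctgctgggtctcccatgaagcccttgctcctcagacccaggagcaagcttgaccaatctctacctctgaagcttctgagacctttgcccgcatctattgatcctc
Ahsg (chr16:22891765-22892014, plus strand): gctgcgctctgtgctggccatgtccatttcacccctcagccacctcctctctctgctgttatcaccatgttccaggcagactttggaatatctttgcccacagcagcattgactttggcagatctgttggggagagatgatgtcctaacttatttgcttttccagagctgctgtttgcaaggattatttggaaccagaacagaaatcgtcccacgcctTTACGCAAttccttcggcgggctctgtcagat
C1ra (chr6:124512371-124512620, plus strand): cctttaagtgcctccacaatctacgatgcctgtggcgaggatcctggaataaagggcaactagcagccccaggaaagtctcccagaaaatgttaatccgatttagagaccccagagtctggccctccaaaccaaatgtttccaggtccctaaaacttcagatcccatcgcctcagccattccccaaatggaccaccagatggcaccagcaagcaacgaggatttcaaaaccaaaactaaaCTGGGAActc

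The motifs were searched on both strands in the whole window of 300 bases, which adds 50 bases after the start. The capitals in F10 are the core nuclear receptor motif (AGGTCA on the other strand) that begins 30 bases before the start. Those in F11 and Ahsg are matches to the relaxed C/EBP motif TTGCNNAA, read on the other strand, beginning 17 and 32 bases before the start. C1ra holds the STAT3-type motif CTGGGAA 10 bases before the start and a TTGCNNAA match 17 bases after it. The F12 window holds none of these motifs, and Proc, not shown, was not among the genes with a match to any of them. Among all 32851 windows, AGGTCA occurs in 16.3%, TTGCNNAA in 10.8% and CTGGGAA in 11.1%. Of the 21 genes of the set with a window, 8 hold AGGTCA, 10 hold TTGCNNAA and 4 hold CTGGGAA. A gene was counted if any of its windows held the motif, while the percentages are of single windows, so the measures are not alike. GTTAATNAT, an HNF1 motif, occurs in 2 of the 21 (F13b and Fga) and in 0.801% of all windows, and TTCCNGGAA, the STAT palindrome, in 2 (Fga and Pros1) and 1.15%. The HNF4 repeat CAAAGTCCA and the C/EBP palindrome TTGCGCAA were found in none of the 21, against 0.475% and 0.183% of all windows. TTGCGCAA is one form of TTGCNNAA, and a match is a match of letters only.

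Factor X, the protease on which the tissue factor and contact routes converge, is encoded by F10. F10 measured -0.15, 0.03, 0.81 and -0.01 in resveratrol livers, -0.27, -0.19, 0.04, -0.28 and -0.21 in high-calorie livers, and 0.54, 0.48, 0.47, 0.51 and 0.13 in standard-diet livers. All high-calorie values lay below all standard-diet values, and 1 resveratrol value lay above every other. The high-calorie minus standard difference was -0.61 (SE 0.15, limma adjusted p = 0.0214), a 1.53-fold fall. The other clotting proteases and cofactors of this group did not pass. F2, prothrombin, came nearest at -0.35 (SE 0.10, adjusted p = 0.0505), and its sign turned to 0.16 with median centring. F5, F7, F8, F9 and F13b, which encode 2 cofactors, 2 proteases and the carrier subunit of factor XIII, lay between -0.23 and 0.30. F8, the gene of endothelial origin, was at 0.14 (SE 0.08, adjusted p = 0.248).

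The contact system, in which factor XII, prekallikrein and factor XI activate one another on the scaffold of kininogen, had 3 of 4 genes lower. F11 measured -0.42, -0.05, -0.19 and -0.52 in resveratrol livers, -0.90, -0.92, -0.81, -0.85 and -0.68 in high-calorie livers, and -0.47, -0.10, -0.31, -0.69 and -0.46 in standard-diet livers. High-calorie values were the lowest except that 1 of them met 1 standard-diet value, and the difference was -0.43 (SE 0.10, adjusted p = 0.0224). For Kng1 the ratios were -0.29, -0.16, 0.66 and -0.25 with resveratrol, -0.51, -0.50, -0.44, -0.52 and -0.61 on the high-calorie diet, and 0.15, 0.34, 0.20, 0.18 and -0.03 on the standard diet. The high-calorie and standard-diet values were fully separated, with a difference of -0.69 (SE 0.14, adjusted p = 0.00999).

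F12, which starts the contact route, had the smallest of the falls that passed. Its ratios were 0.66, 0.76, 0.80 and 0.56 in resveratrol livers, 0.76, 0.69, 0.71, 0.63 and 0.71 in high-calorie livers, and 1.08, 0.85, 0.90, 1.03 and 0.87 in standard-diet livers. No high-calorie or resveratrol value reached the lowest standard-diet value. The high-calorie minus standard difference was -0.24 (SE 0.06, adjusted p = 0.0162) with loess and 0.10 (adjusted p = 0.531) with median centring. Klkb1, prekallikrein, was at -0.21 (SE 0.15, adjusted p = 0.381).

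Among the genes that restrain or dissolve clots, Proc had the smallest adjusted p of the whole set. Proc measured -0.08, -0.06, -0.04 and -0.27 in resveratrol livers, -0.40, -0.41, -0.07, -0.36 and -0.30 in high-calorie livers, and 0.40, 0.68, 0.28, 0.45 and -0.01 in standard-diet livers. Every high-calorie and every resveratrol value lay below every standard-diet value. The high-calorie minus standard difference was -0.67 (SE 0.10, adjusted p = 0.00167), a 1.59-fold fall. Plg, which encodes plasminogen, was at -0.23 (SE 0.10, adjusted p = 0.158). Cpb2, the carboxypeptidase that protects fibrin from plasmin, was at -0.04. Pros1, protein S, the cofactor of protein C, was at 0.04 on its brightest probe, while a second probe passed in the other sense from Proc, at 0.47 (SE 0.13, adjusted p = 0.0362), so Pros1 is uncertain.

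Ahsg encodes fetuin-A, an abundant plasma glycoprotein that keeps calcium phosphate from precipitating and whose synthesis falls in the acute phase. Its ratios were 1.5, 1.48, 2.14 and 1.25 with resveratrol, 0.93, 1.16, 1.03, 0.68 and 0.61 on the high-calorie diet, and 1.59, 2.18, 1.60, 1.38 and 1.36 on the standard diet. As printed, the ratios of all 5 high-calorie livers lay below those of all livers of both other groups. The high-calorie minus standard difference was -0.74 (SE 0.18, adjusted p = 0.0207). Its size is not exact, because the pool channel of this spot was saturated on all 14 arrays, and Cy3 was saturated in high-calorie replicate 5 and standard-diet replicate 5. The ratios of those replicates can be read as neither a level nor a bound, so the separation is not exact either. From the Cy3 channel alone, with the saturated Cy3 spots kept, the difference was -0.66 (limma adjusted p = 0.0890).

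In the classical pathway C1ra, a protease of the C1 complex, was the 1 gene of 4 that passed. C1ra measured -0.72, -0.85, -0.27 and -0.81 in resveratrol livers, -1.14, -1.18, -1.0, -1.13 and -1.04 in high-calorie livers, and -0.51, -0.73, -0.51, -0.34 and -0.46 in standard-diet livers. The 5 high-calorie values were the lowest of the 14. The high-calorie minus standard difference was -0.59 (SE 0.10, adjusted p = 0.00266). Its partner protease C1s was at 0.09 (SE 0.10, adjusted p = 0.583) on its brightest probe and at -0.09 (adjusted p = 0.596) on another. C2 and C4b, which build the classical C3 convertase, were at -0.19 and 0.16, and another C2 probe was at -0.14. The C4b probe also lists an accession of C4a, and the 2 transcripts cannot be told apart.

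No gene of the lectin pathway, of the alternative pathway or of the fibrinogen chains passed in this comparison. Masp1, a protease that acts with the mannose-binding lectins, was at -0.23 (SE 0.07, adjusted p = 0.0540) on its brightest probe, with its other 3 probes at -0.24 (adjusted p = 0.0330), 0.23 and 0.10. The lectins Mbl1 and Mbl2 were at -0.21 and 0.29, and the adjusted p of Mbl2 was 0.0901. C3, the protein at which the pathways meet, was at -0.59 (SE 0.22, adjusted p = 0.103). Cfb, the protease of the alternative convertase, was at -0.57 (adjusted p = 0.103), and Cfi, the protease that inactivates C3b and C4b, was at -0.17. The fibrinogen chains Fga, Fgb and Fgg were at -0.35, -0.67 and -0.21, with adjusted p between 0.0848 and 0.644.

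Outside the naming rule, 3 probes described as Masp2 were at -0.17 (SE 0.04, adjusted p = 0.0293), 0.12 (adjusted p = 0.386) and -0.10 (adjusted p = 0.428), so they disagree. C4bp, an inhibitor of the classical convertase, was at -0.19 (adjusted p = 0.296).

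**Figure D2:**
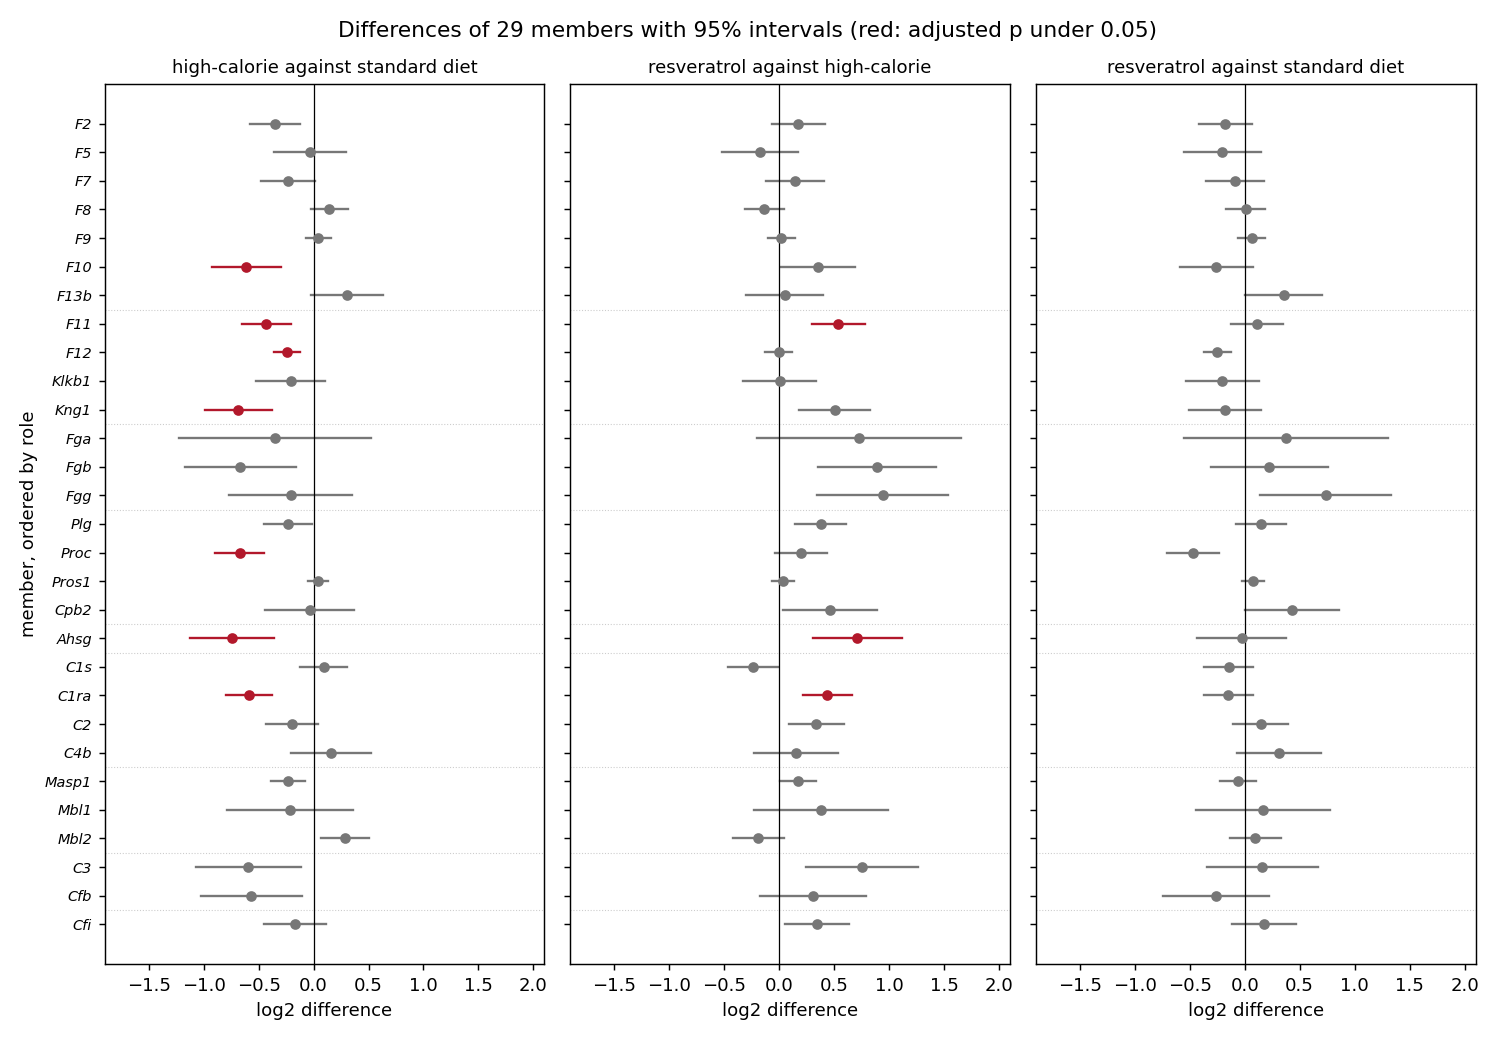
Log2 difference of each of the 29 genes (points) with its 95% interval (lines) in the 3 comparisons, with loess scaling; genes are ordered by role and red marks an adjusted p under 0.05. In the left panel 22 of 29 points lie below 0, against 12 with median centring; in the middle panel 24 lie above 0; the right panel holds no red point.

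These calls depended on the scaling. With median centring in place of loess, none of the 29 genes passed in limma, although 9.28% of all genes did, and the share of higher genes among those calls was 79.0%, against 56.9% with loess. F10, F11, Kng1, Proc, Ahsg and C1ra kept negative differences of -0.27 to -0.18 there, while F12 was at 0.10. From the Cy3 channel alone, 24 of 29 genes were below 0 with a median of -0.24, the 7 genes were all between -0.66 and -0.26, and none passed, with 1.32% of all genes called. The scanner's processed signals gave 7 lower genes (7.69% of all genes called), and the authors' deposited scores gave none (1.31%). Several of these transcripts are among the brightest on the array: the pool spot was saturated on all 14 arrays for Fgb, Ahsg and C3, on 13 for Fgg and on 5 for F2. How saturation bears on the scaling was not tested.

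**Figure D3:**
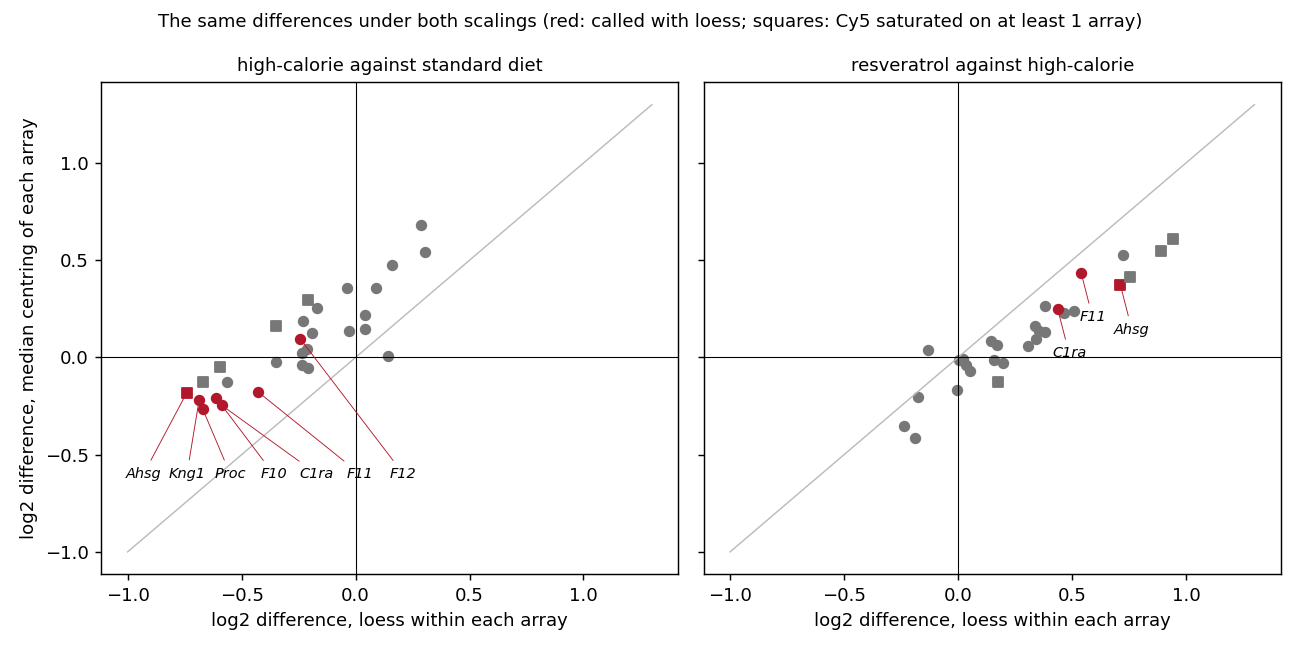
Log2 difference of each of the 29 genes with median centring (y axis) against that with loess (x axis), for high-calorie against standard diet on the left and resveratrol against high-calorie on the right. The grey line marks equal values; red points passed with loess, and squares had a saturated pool spot on at least 1 array. On the left all points but 1 lie above the line, and F12 stands at 0.10 with median centring.

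The arrays were extracted from their images on 2 days and fall into 2 series of slide numbers, which do not align fully with diet. Within the first day (2 high-calorie and 3 standard-diet arrays) 23 of 29 differences were negative with a median of -0.31. Within the other day (3 and 2 arrays) 20 were negative with a median of -0.11. Within the slide series that holds both diets the median was -0.23 and 5 genes passed as lower, where 2.56% of all genes passed. With the slide series as a block 4 genes passed (5.74% of all genes). With array brightness as a covariate 2 passed (2.62% of all genes). Standard-diet arrays were dimmer than high-calorie arrays at both ends of the range, with median net Cy3 of 48.6 to 85.6 against 57.7 to 114. The part of brightness in the falls was not tested beyond the fit with that covariate. Leaving out single arrays gave 5 to 14 lower genes, where 4.22% to 18.3% of all genes passed. The highest count came without resveratrol replicate 3, where 10.6% of all genes passed.

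The second comparison sets resveratrol on the high-calorie diet against the high-calorie diet alone. F11, Ahsg and C1ra, 3 of the 7 genes that had fallen, were higher with resveratrol, none of the 29 was lower, and 5.39% of all genes passed in either direction, 3.16% as higher and 2.23% as lower. Both comparisons share the 5 high-calorie arrays, so opposite signs in them are not independent. The median of the 29 genes was 0.31 with loess and 0.09 with median centring, against -0.0068 over all genes with loess. At an unadjusted p under 0.05, 13 genes were higher and 1, C1s, was lower, where 22.2% of all genes passed in either direction. Resveratrol and high-calorie values, as printed, did not overlap in 8 of the 29 genes, against 12.96% of all genes. Pros1 was among the 8 with a difference of only 0.04. The count of 3 became 1 without high-calorie replicate 1, 2, 4 or 5 or resveratrol replicate 1, where 1.08% to 4.28% of all genes passed. It became 5 without resveratrol replicate 2 (4.38% of all genes) or standard-diet replicate 2 (7.87%).

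F11 rose by 0.54 (SE 0.11, adjusted p = 0.0164), a 1.45-fold rise, and all 4 resveratrol values exceed all 5 high-calorie values. Without resveratrol replicate 3 the difference was 0.50 (adjusted p = 0.0446). C1ra rose by 0.44 (SE 0.10, adjusted p = 0.0284), again with no overlap, and by 0.31 (adjusted p = 0.0427) without that animal. Ahsg rose by 0.71 (SE 0.19, adjusted p = 0.0432), a size that is not exact given its saturated pool spot and the saturated Cy3 spot of high-calorie replicate 5. Without resveratrol replicate 3 the Ahsg difference was 0.53 with an adjusted p of 0.112. None of the 3 passed with median centring, at 0.44, 0.25 and 0.37, or from the Cy3 channel alone, at 0.42, 0.43 and 0.42. Kng1 was at 0.51 (SE 0.15, adjusted p = 0.0646) with all arrays, and at 0.28 (adjusted p = 0.0443) without resveratrol replicate 3.

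F12 and Proc did not pass in this comparison. F12 was at -0.0045 (95% interval -0.13 to 0.12), and Proc at 0.20 (95% interval -0.04 to 0.44, adjusted p = 0.316). F10 was at 0.35 (SE 0.16, adjusted p = 0.200), and at 0.14 without resveratrol replicate 3.

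The printed ratios of the fibrinogen chains and C3 were highest in resveratrol replicate 3. Both channels of Fgb and C3 were saturated on that array, so for these genes the rank is not established. Fgg, the gamma chain, measured 0.48, -0.05, 1.91 and 0.99 in resveratrol livers, -0.04, 0.10, -0.01, -0.40 and -0.20 in high-calorie livers, and 0.28, -0.07, 0.26, -0.20 and 0.21 in standard-diet livers. Resveratrol replicate 3 was the highest of the 14 and replicate 4 the next, while replicate 2 lay within the high-calorie range. Fgg differed by 0.94 (SE 0.28, adjusted p = 0.0632) with all arrays and by 0.58 (adjusted p = 0.116) without replicate 3.

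Fgb, the beta chain, measured 0.75, 0.86, 2.31 and 1.36 with resveratrol, 0.55, 0.65, 0.45, -0.04 and 0.54 on the high-calorie diet, and 0.86, 1.27, 1.22, 0.96 and 1.17 on the standard diet. As printed, every resveratrol value exceeded every high-calorie value, and the difference was 0.89 (SE 0.25, adjusted p = 0.0522), or 0.56 (adjusted p = 0.0829) without replicate 3. Fga, the alpha chain, was at 0.73 (SE 0.43, adjusted p = 0.355) and at 0.20 without that animal.

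C3 gave 0.96, 0.74, 2.31 and 1.11 with resveratrol, 0.59, 0.68, 0.59, 0.22 and 0.54 on the high-calorie diet, and 1.06, 1.41, 0.97, 1.18 and 0.97 on the standard diet. The resveratrol and high-calorie values did not overlap, and the difference was 0.75 (SE 0.24, adjusted p = 0.0782), or 0.41 (adjusted p = 0.0820) without replicate 3. The pool spots of Fgb and C3 were saturated on all 14 arrays and that of Fgg on 13, so sizes for these genes are not exact. In resveratrol replicate 3 both channels of Fgb and C3 were saturated, and those 2 ratios can be read as neither a level nor a bound. Plg, plasminogen, was at 0.38 (SE 0.11, adjusted p = 0.0553) with non-overlapping groups, and at 0.24 (adjusted p = 0.105) without replicate 3.

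Cpb2 measured -0.28, -0.36, 0.98 and -0.13 in resveratrol livers, -0.45, -0.35, -0.46, -0.40 and -0.39 in high-calorie livers, and -0.43, -0.51, -0.23, -0.41 and -0.29 in standard-diet livers. Without resveratrol replicate 3, all values of the 3 groups lay between -0.51 and -0.13. The difference was 0.46 (SE 0.20, adjusted p = 0.189) with that array and 0.15 (adjusted p = 0.233) without it.

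The remaining genes stayed short of the threshold. F2, F7, F9, F13b, Klkb1 and Pros1 lay between 0.0056 and 0.18, F5 and F8 at -0.17 and -0.13, and C1s at -0.24 (adjusted p = 0.202). C2 and Cfi came nearest in the complement arms, at 0.34 (adjusted p = 0.107) and 0.34 (adjusted p = 0.157). A second C2 probe was at 0.13 (adjusted p = 0.682). C4b, Masp1, Mbl1, Mbl2 and Cfb lay between -0.19 and 0.38. Without resveratrol replicate 3, Mbl1 was at 0.03 (0.38 with it), Cfb at 0.01 (0.31), C4b at -0.08 (0.16), C2 at 0.17 and Cfi at 0.19. The probes known by description alone were at 0.15 (adjusted p = 0.0691), 0.08 and 0.04 for Masp2 and at 0.38 for C4bp (adjusted p = 0.0857).

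The resveratrol animals differed among themselves more than those of either other group. The median SD of the 29 genes was 0.272 in resveratrol, 0.0954 in high-calorie and 0.209 in standard-diet livers, against 0.0870, 0.0706 and 0.0871 over all genes. Without replicate 3 the resveratrol median SD was 0.125. That replicate was the highest of its group for 23 of 29 genes, a place it held for 29.4% of all genes. The 3 genes in which it was the lowest were F8, Masp1 and Mbl2. Among standard-diet animals replicate 2 was the lowest for 16 of 29 genes and the highest for 8, and the highest for 24.2% of all genes. Its array was the dimmest of the 14, with a median net Cy3 of 48.6. The part of brightness in these extremes was not tested. The SD of Fga reached 0.73 among standard-diet animals and 1.11 with resveratrol.

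**Figure D4:**
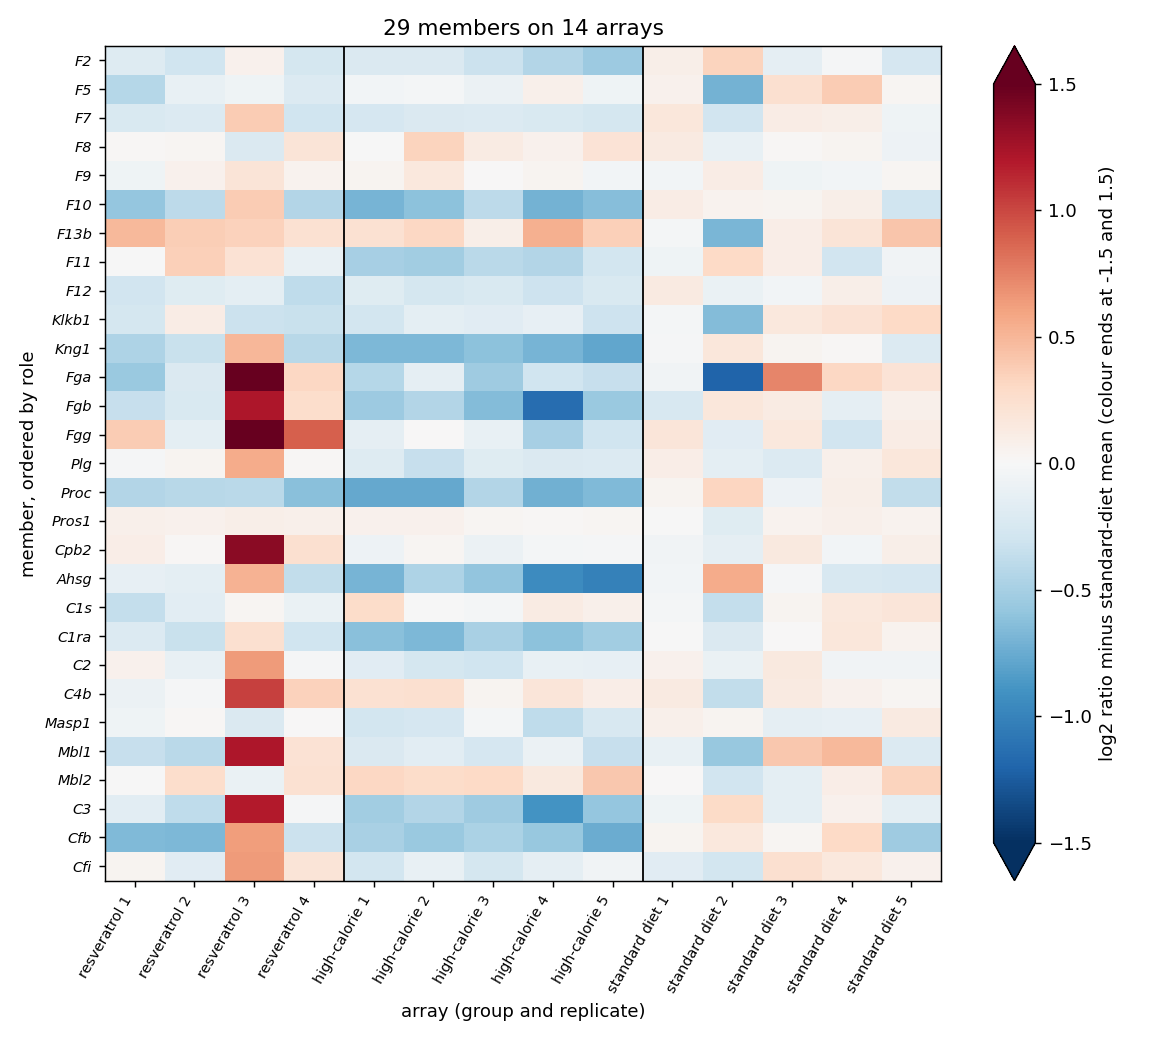
Log2 ratio of each of the 29 genes (rows, by role) on each of the 14 arrays (columns), as the difference from the mean of the standard-diet arrays, with loess scaling. Blue is lower and red higher; resveratrol replicate 3 is the reddest column, with Fga, Fgg and Cpb2 at its deepest, and the high-calorie columns are mostly pale to mid blue.

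Per array, the median over the 29 genes of the difference from the standard-diet mean was -0.16, -0.14, 0.38 and -0.01 on resveratrol arrays and between -0.26 and -0.22 on high-calorie arrays. On standard-diet arrays it lay between -0.14 and 0.08. The array with the highest acute phase mean was the one with the highest median of these genes, and the part of the acute phase in the resveratrol values was not tested. Without it the median over the 29 genes of the resveratrol minus high-calorie difference was 0.14. In the same fit 14 of 29 genes were lower in high-calorie than in standard-diet livers, where 10.6% of all genes passed in either direction. The group differences were as before and the pooled spread was smaller. The added 7 were F2, Fgb, Plg, C2, Masp1, C3 and Cfb.

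**Figure D5:**
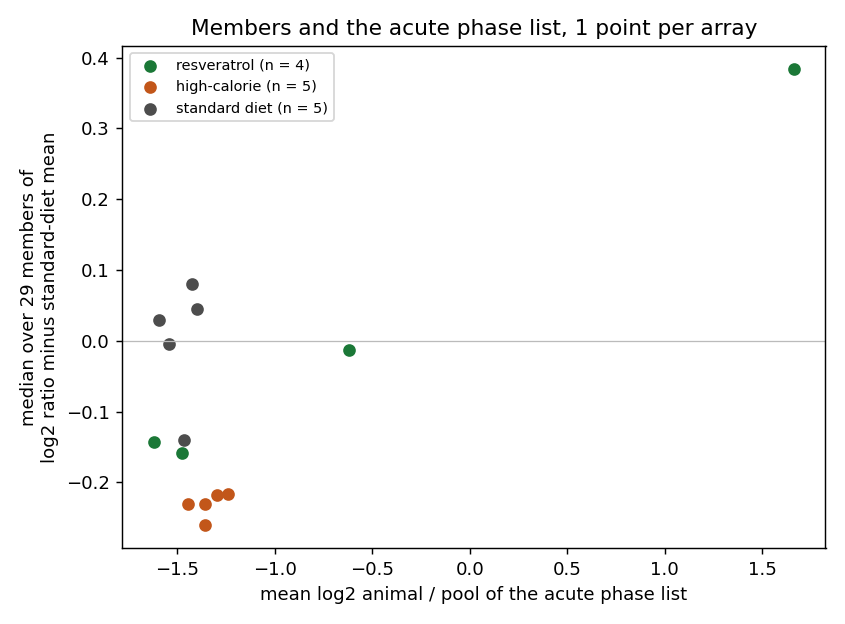
Median over the 29 genes of the log2 ratio minus the standard-diet mean (y axis) against the mean log2 ratio of 21 acute phase genes (x axis), 1 point per array, with loess scaling. Resveratrol replicate 3 stands alone at 1.66 and 0.38, and the 5 high-calorie arrays are the lowest, between -0.26 and -0.22.

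The resveratrol arrays were all extracted on the first day, beside 2 high-calorie and 3 standard-diet arrays. Within that day the median resveratrol minus high-calorie difference of the 29 genes was 0.27 and none passed in limma, with 0.159% of all genes called. Within the first slide series (3 resveratrol and 2 high-calorie arrays) it was 0.37. Within the second, 1 resveratrol array, replicate 2, stood against 3 high-calorie arrays and was assumed to vary like the other groups, and the median was 0.06.

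In the third comparison, resveratrol on the high-calorie diet against the standard diet, none of the 29 genes passed in limma, where 0.214% of all genes did, 0.125% as higher and 0.0888% as lower. At an unadjusted p under 0.05, Fgg and F13b were higher and Proc and F12 lower, 4 of 29, where 10.6% of all genes passed. The median difference was 0.06 with loess and 0.18 with median centring, but -0.06 from the Cy3 channel alone and -0.15 without resveratrol replicate 3. Within the second slide series, which holds all 5 standard-diet arrays and 1 resveratrol array, replicate 2, the median was -0.14. The other 3 resveratrol arrays lie in the first series, so diet and slide series can hardly be told apart here. Proc was at -0.47 (SE 0.11, 95% interval -0.71 to -0.24, adjusted p = 0.115) and F12 at -0.25 (SE 0.06, 95% interval -0.37 to -0.12, adjusted p = 0.120). In these 2 genes every resveratrol value lay below every standard-diet value, and 2.94% of all genes had no overlap between these groups. Fgg was at 0.74 (SE 0.28, adjusted p = 0.369) and Cpb2 at 0.43 (SE 0.20, adjusted p = 0.471), and without resveratrol replicate 3 they were at 0.38 and 0.12. F11, Ahsg and C1ra were at 0.11, -0.03 and -0.15, with 95% intervals of -0.12 to 0.35, -0.43 to 0.38 and -0.37 to 0.07. These 3 genes were at 0.08, -0.21 and -0.28 without resveratrol replicate 3. The size for Ahsg is not exact, because its pool spot was saturated on all 14 arrays and Cy3 in standard-diet replicate 5. Without resveratrol replicate 3, F10 at -0.47 (adjusted p = 0.0437) and Kng1 at -0.40 (adjusted p = 0.0194) were lower in resveratrol than in standard-diet livers. In that fit 0.643% of all genes passed.

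Of 21 other genes of the clotting system, 3 were higher and 1 lower in high-calorie than in standard-diet livers, and their median difference was -0.01. Of all genes tested, 5.37% passed as higher and 4.07% as lower in that comparison. The share in either direction was 5.39% for resveratrol against high-calorie and 0.214% for resveratrol against the standard diet. Anxa2, a cell-surface annexin that binds plasminogen and its activator, averaged 0.90 ± 0.17 on the high-calorie and -0.37 ± 0.14 on the standard diet (SD, n = 5 each). The difference was 1.27 (SE 0.09, adjusted p = 7.79e-06), and Anxa2 passed with median centring (1.03) and from Cy3 alone (2.07) as well. Gas6, a vitamin K-dependent ligand related to protein S, rose by 0.95 (adjusted p = 0.0393), and Tfpi2, a Kunitz-type protease inhibitor, by 0.48 (adjusted p = 0.0319). Hgfac, the activator protease of hepatocyte growth factor, fell by 0.46 on the log2 scale (adjusted p = 0.000594), and its difference was -0.14 (adjusted p = 0.272) with median centring. With resveratrol Anxa2 was lower than on the high-calorie diet alone, at -1.02 (SE 0.09, adjusted p = 0.000525), and no other gene of the 21 passed. Against the standard diet only Hgfac of the 21 passed, at -0.41 (adjusted p = 0.0205).

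Of 15 other early complement genes and regulators, 3 were higher on the high-calorie than on the standard diet and none was lower. Of all genes tested, 5.37% passed as higher and 4.07% as lower in that comparison. The share in either direction was 5.39% for resveratrol against high-calorie and 0.214% for resveratrol against the standard diet. Cfd, adipsin, the protease that activates factor B and a product of fat cells, averaged 0.48 ± 0.68 on the high-calorie and -2.05 ± 0.24 on the standard diet (SD, n = 5 each). The difference was 2.52 (SE 0.31, adjusted p = 0.000339). The collectins Colec12 and Colec10 rose by 0.54 (adjusted p = 0.0258) and 0.39 (adjusted p = 0.0260). With resveratrol none of the 15 differed from the high-calorie diet at the threshold in limma (1 higher and 0 lower at an unadjusted p under 0.05, where 22.2% of all genes passed), and Cfd was 2.57 above the standard diet (SE 0.33, adjusted p = 0.00557). These 3 genes passed with median centring too on the high-calorie diet, at 2.48, 0.63 and 0.54.

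Values of other lists moved beside these genes. For their counts, 9.44% of all genes passed for high-calorie against standard diet, 5.37% as higher and 4.07% as lower. For resveratrol against high-calorie 5.39% passed, and for resveratrol against the standard diet 0.214%. Of 8 hepatocyte markers, 1 passed, Apoa1, which was lower on the high-calorie than on the standard diet (-0.64, SE 0.17, adjusted p = 0.0359), and the median of the 8 was -0.31. At an unadjusted p under 0.05, 4 of the 8 were lower and 2, Apob at 0.43 and Cyp2e1 at 0.25, were higher. Their mean log2 ratio per array ran from 0.55 to 0.72 in resveratrol, from 0.21 to 0.60 in high-calorie and from 0.51 to 0.80 in standard-diet livers. Of 5 stellate cell markers, 4 were higher on the high-calorie diet with loess, Col3a1 most at 0.75 (adjusted p = 0.000427), while Col1a1 was at -0.13 from Cy3 alone. With resveratrol, Col3a1 and Lrat were lower than on the high-calorie diet alone. Among 20 liver transcription factors, Hnf4a, the nuclear receptor that drives many clotting genes, was at -0.15 (SE 0.04, adjusted p = 0.0413) with loess, at 0.0023 with median centring and at 0.12 from Cy3 alone. Nr1i3, Ppara and Esr1 were higher on the high-calorie diet, by 0.42, 0.43 and 0.58. The part of hepatocyte or stellate cell content and of these factors in the falls was not tested. None of 21 acute phase genes passed in any comparison in limma. At an unadjusted p under 0.05, 0 were higher and 1 lower on the high-calorie against the standard diet, 3 were higher with resveratrol against the high-calorie diet, and 7 were higher with resveratrol against the standard diet. Over all genes 27.6%, 22.2% and 10.6% passed that threshold in the 3 comparisons.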

How the data were processed

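Liver RNA of 14 mice was hybridised to two-colour arrays. Per the labels, RNA was purified, amplified and labelled with Cy3, and Cy5 held the pool on every array with no dye swap. The scanner files the authors deposited give, per the file headers, the intensity of each spot and its background from Agilent Feature Extraction 7.5.1. The authors also deposited processed values whose unit is a score (column mean 0, SD 1), which follows log2 processed Cy3 with correlations of 0.983 to 0.985; its log base and making are not given in the sources used here, and its scaling bars a reading of sizes.

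Spot intensity was corrected by normexp with an offset of 50, and log2 animal-to-pool ratios were normalised by loess with control spots at weight 0. Spots with outlier flags (576) were left out, and saturated spots were kept. Spots of a probe were averaged. Probes (41174) were matched to RefSeq names by systematic name, accession or gene name (20859 matched). The filter kept genes whose Cy3 spot was well above background on 4 or more arrays. A single linear model over the 3 groups was fitted with limma 3.58.1 in R 4.3.3, with Benjamini-Hochberg adjustment over 32673 genes within each comparison; "rose", "fell", "higher" and "passed" of a gene refer to an adjusted p under 0.05. The procedure was tested on simulated log2 ratios. The number of arrays limits the precision. Arrays were grouped as the labels give them, and no pair was a duplicate (highest correlation of log2 ratios 0.888). Same-numbered animals are not paired by the labels.

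The genes and lists were chosen with earlier results of these data known. Per-array values are given for genes that passed in at least 1 comparison and for the 3 with the largest difference in each; others are given by role with the smallest adjusted p. From other lists, up to 4 genes that passed were named per comparison. The alternatives were other background corrections, scalings, filters, array weights, blocks for replicate, extraction day and slide series, and leaving out each array. Those within slide series and without saturated genes were chosen after seeing the data. The extraction day is that of image processing, and the slide series were cut at the largest gap in the slide numbers.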

Additional observations from a re-analysis of the deposited data

Results flagged for a closer look

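In 8 of 87 groups of animals, taken gene by gene, the highest or the lowest animal stood apart from the others by more than Dixon's 95% value for the size of its group. Chance marks about 1 in 20 groups. The ratio given is the gap to the nearest animal over the range of the group. Resveratrol replicate 3 was the high animal for Plg (0.893), Kng1 (0.869), F7 (0.869) and Cpb2 (0.831). Standard-diet replicate 2, measured on the dimmest array, was the high animal for Ahsg (0.712) and the low one for C4b (0.793). Standard-diet replicate 5 was the low animal for F10 (0.838), and high-calorie replicate 2 the low one for Plg (0.804).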

How the results depend on the processing

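Brackets give the share of all genes that passed in the same fit. For high-calorie against standard-diet livers, 7 genes were lower with the settings of the report (9.44%). The count was 0 with median centring (9.28%), with Cy3 alone (1.32%) and with the deposited scores (1.31%). It was 13 with array weights, 12 lower and 1 higher (21.8%). It was 4 with the slide series as a block (5.74%) and 2 with brightness as a covariate (2.62%). Within the first extraction day it was 1 (2.51%) and within the other 0 (0.168%). Leaving out each array gave 5 to 14 (4.22% to 18.3%), with 14 without resveratrol replicate 3 (10.6%). The median of -0.23 was 0.0421 with median centring, and F12 was at 0.0970 there. For resveratrol against high-calorie (3 genes, 5.39%), the count was 5 without background correction (8.32%), with a filter on all arrays (7.85%) and with array weights (9.18%). It was 1 with the processed signals (2.1%) and with day (1.36%) or slide series (2.06%) as a block. It was 0 with median centring (0.367%), Cy3 alone (0.138%) and the deposited scores (0.15%). It was also 0 within the first day (0.159%) and within the first slide series, where no gene of all passed. It was 5 without standard-diet replicate 2 (7.87%) or resveratrol replicate 2 (4.38%), and 1 without high-calorie replicate 1, 2, 4 or 5 or resveratrol replicate 1 (1.08% to 4.28%). Its median of 0.31 was 0.0868 with median centring, 0.0630 within the second slide series, and 0.14 to 0.40 when an array was left out, lowest without resveratrol replicate 3. For resveratrol against the standard diet (0 genes, 0.214%), the count was 1 within the first day (0.168%), 1 without standard-diet replicate 5 (0.487%) and 2 without resveratrol replicate 3 (0.643%). Its median of 0.06 was -0.0614 from Cy3 alone, -0.143 within the second slide series and -0.152 to 0.0790 when an array was left out. The cause of these shifts was not tested.

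Of 32 alternatives per result, the high-calorie falls stayed past the threshold in 27 for Proc and C1ra, 26 for Kng1, 25 for F12, 22 for Ahsg, 21 for F11 and 20 for F10, and the rises with resveratrol in 26 for F11, 18 for C1ra and 10 for Ahsg. Of these results F12 alone changed sign in any of them. Quantile normalisation of average intensities leaves log ratios as they are, so it is among those 32 by construction. Some other alternatives also leave the difference of these genes unchanged and can move only its p-value. They are the other filters, the mean of all probes, as these genes have no second probe, and leaving out an array of the group not compared. The counts out of 32 are thus not counts of independent checks. Genes called overall with resveratrol against high-calorie were 58.7% higher with loess and 25.8% higher with median centring. With a replicate block 8, 2 and 0 genes of the set passed in the 3 comparisons, against 7, 3 and 0 without it, and 8.82%, 1.25% and 0.147% of all genes. Deviations of same-numbered arrays correlated above 0.1 in 4 of 13 pairs (range -0.185 to 0.300), so the numbers were not taken as pairs.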
